A study of Mus musculus with 12 samples.

Results

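The sites described here are narrow H3K4me3 regions that also carried H3K27ac and lacked H3K9me3, the pattern of marks found at active promoters. They were chosen by the presence of peaks. On chromosomes 1 to 19, overlapping peaks of the 4 H3K4me3 lists (1 bp or more in common) were joined. A merged region was kept when it was under 2000 bp wide, held a peak of all 4 H3K4me3 libraries, overlapped a peak in each of the 4 H3K27ac libraries and overlapped no peak of the 4 H3K9me3 libraries. This gave 5649 sites, which are 24.7% of the 22831 merged H3K4me3 regions, 36.3% of the 15566 regions found in all 4 H3K4me3 libraries and 86.8% of the 6506 of those that had H3K27ac in all 4 libraries. The presence of both marks in both genotypes is therefore set by the choice of sites and is no result.

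The cells were E14TG2a mouse embryonic stem cells, grown with serum, 1000 U/ml LIF, 1 µM PD0325901 and 3 µM CHIR99021, the last 2 being inhibitors that hold such cells in an undifferentiated state. They were wild type (WT) or carried the Alkbh5 del-cIDR allele, in which ALKBH5 lacks a disordered stretch at its C terminus. ALKBH5 is an enzyme that takes N6-methyladenosine off RNA. H3K4me3 and H3K27ac came from CUT&Tag and H3K9me3 from CUT&RUN, with 2 libraries per mark and genotype and 12 in all. Neither separate cultures for the replicates nor the number of mutant clones is stated in the labels. A p-value here thus covers the spread between libraries, which may be technical, and genotype cannot be told apart from clone. The lists held 18367 to 19242 peaks of H3K4me3, 22810 to 32353 of H3K27ac and 20895 to 41183 of H3K9me3 on chromosomes 1 to 19. They give no read counts, so depth is unknown.

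At a typical active promoter, H3K4me3 is placed on the nucleosomes around the start of transcription by SET1 and MLL complexes, and H3K27ac by the acetyltransferases p300 and CBP. H3K4me3 is found above all at unmethylated CpG islands, while H3K27ac also marks active enhancers, so a site with both marks and a narrow H3K4me3 peak is usually read as a promoter in use. H3K9me3 marks heterochromatin and, in embryonic stem cells, silences transposable elements through SETDB1 and the KRAB zinc-finger proteins. The peak lists are in GRCm39 coordinates and the gene tables at hand in GRCm38.p6, so no site was tied to a gene start, the name promoter rests on the marks alone, and no marker gene of stem cells could be checked. Sites are named by position, counted from 1.

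The sites were compact. Their width ranged from 352 to 1998 bp, with a median of 1300 bp and quartiles of 1069 and 1563 bp. A single H3K4me3 peak per library made up nearly every site, with only 11 to 19 sites split in more than 1 peak, and a single H3K27ac peak overlapped 5550 to 5574 of them. Peaks at these sites were 29.4% to 30.9% of each H3K4me3 list and 17.8% to 25.2% of each H3K27ac list. The sites were spread along the chromosomes, with a median gap of 116 kb between neighbours and quartiles of 43.0 and 376 kb. Of 5630 neighbouring pairs, 89 were less than 5 kb apart and 10 less than 1 kb.

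The width limit fell within a continuous range. The 3 widest sites, all of 1998 bp, were chr10:128657107-128659104, chr11:106888565-106890562 and chr14:76651593-76653590. Just outside it were chr2:129039936-129041935 with 2000 bp, and chr11:69545811-69547811 and chr2:164752352-164754352 with 2001 bp. H3K4me3 folds at the 3 inside were 6.18 to 11.7 over all libraries and at the 3 outside 6.17 to 9.36, and the H3K27ac folds were 4.13 to 7.41 and 3.26 to 10.6.

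Fold enrichment, the authors' ratio of a peak over the background expected in its own library, had a median of 10.9 to 11 in the 4 H3K4me3 lists at these sites, with 5th percentiles of 4.99 to 5.05 and 95th percentiles of 15.5 to 15.8. For H3K27ac the median was 6.57 and 7.12 in del-cIDR replicates 1 and 2 and 5.80 and 5.95 in the WT replicates. A fold belongs to its list and is printed to describe a peak, so statements that genotypes differed or overlapped at a site rest on ranks. For these, the fold of the strongest peak at a region was instead ranked in each library among the same regions and written as a percentile from 0 to 100. The 15566 regions of all 4 H3K4me3 libraries were ranked for H3K4me3, and the 6506 that also had H3K27ac in all 4 for H3K27ac.

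The site with the highest mean H3K4me3 percentile was chr4:145500879-145501740, 862 bp wide. Its H3K4me3 fold was 25.9 and 24.5 in del-cIDR replicates 1 and 2 and 25.5 and 24.1 in WT replicates 1 and 2. The second, chr12:23364383-23365243, had folds of 24.2 and 23.9 in del-cIDR and 23.0 and 24.2 in WT. The H3K4me3 percentiles of the genotypes overlapped at both sites. The H3K27ac percentiles overlapped at neither, and their group means were higher in del-cIDR by 0.546 points at the first and 18.4 points at the second. At chr8:19834519-19835355 the H3K4me3 folds were 23.5 and 22.9 in del-cIDR and 24.1 and 23.0 in WT. This site was also first for H3K27ac, with folds of 23.7 and 24.9 in del-cIDR and 24.1 and 27.2 in WT. The others of the 8 highest for H3K4me3 were chr14:15363782-15364848, chr4:146176062-146176978, chr8:20697839-20698630, chr13:65562439-65563234 and chr4:146199779-146200524, with folds of 20.8 to 25.2. All 8 were short, from 746 to 1067 bp.

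Of the 8, 3 were between 145 and 147 Mb of chromosome 4 and 2 between 19 and 21 Mb of chromosome 8, and the others were single sites on chromosomes 12, 13 and 14. Their distance to H3K9me3, of which the choice of sites barred only a direct overlap, varied. It was 41.8 to 54.3 kb over the 4 libraries at chr4:145500879-145501740, 38.4 to 71.1 kb at chr14:15363782-15364848 and 28.8 to 57.3 kb at chr13:65562439-65563234, while the median over all sites was 54.4 and 48.2 kb in del-cIDR and 93.5 and 48.6 kb in WT. The other 5 were nearer. An H3K9me3 peak began 0.314 to 0.329 kb from the site at chr8:19834519-19835355 in the 4 libraries and 0.394 to 0.416 kb from chr8:20697839-20698630. At chr4:146176062-146176978 the nearest H3K9me3 peak was 9.92 and 9.96 kb away in del-cIDR and 3.08 and 1.78 kb in WT. The window of 500 kb on each side of that site held 39.7 and 47.9 kb of H3K9me3 in del-cIDR and 32.8 and 45.4 kb in WT, against medians over all 5649 sites of 7.74 and 9.99 kb in del-cIDR and 2.75 and 8.79 kb in WT. WT replicate 1 has the shortest H3K9me3 list, and it gave the least H3K9me3 in each of these sets.

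Over the 56 sites highest in H3K4me3, a number chosen after their positions were seen, the median H3K9me3 in that window was 15.4 and 18.9 kb in the del-cIDR libraries and 6.98 and 19 kb in the WT libraries. Over the other 5593 sites it was 7.70 and 9.93 kb and 2.74 and 8.71 kb in the same order. The strong sites had more in each of the 4 H3K9me3 libraries, by 7.81 ± 2.60 kb (SD, n = 4 libraries). This is a description with no test, since the set holds the sites at which the pattern was seen. An H3K9me3 peak lay within 5 kb of 14.3% to 25% of the 56, and of 3.79% to 7.15% of the others. For the 56 sites highest in H3K27ac the difference was 2.02 ± 0.695 kb (SD, n = 4 libraries). Both differences turned when strength was taken as the −log10 p of the peak, to -0.485 kb for H3K4me3 and -0.400 kb for H3K27ac. The 2 sets shared 9 sites, 16.1% of each.

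The relation ran through all the sites when strength was taken as fold. Sites were split in 4 groups of equal size by the H3K9me3 within 500 kb on each side, averaged over the 4 H3K9me3 libraries. From the group with the least to that with the most, the median H3K4me3 percentile was 57.8 to 59.5, 60.2 to 61.5, 65.0 to 65.8 and 70.3 to 70.8 over the 4 libraries, and the groups held 0, 8, 16 and 32 of the 56 strongest sites. For H3K27ac the medians were 45.8 to 47.2, 49.4 to 50.4, 49.7 to 53.0 and 59.4 to 62.3. No library of a mark crossed between the first and the last group. The relation depended on the measure of strength. By −log10 p the H3K4me3 medians were 72.0 to 73.3 in the first group and 69.3 to 71.1 in the last. The H3K27ac medians by −log10 p went from 44.5 to 46.2 in the first group to 52.3 to 54.0 in the last. How the authors placed reads that map to several positions is not given in the sources used here.

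**Figure D1:**
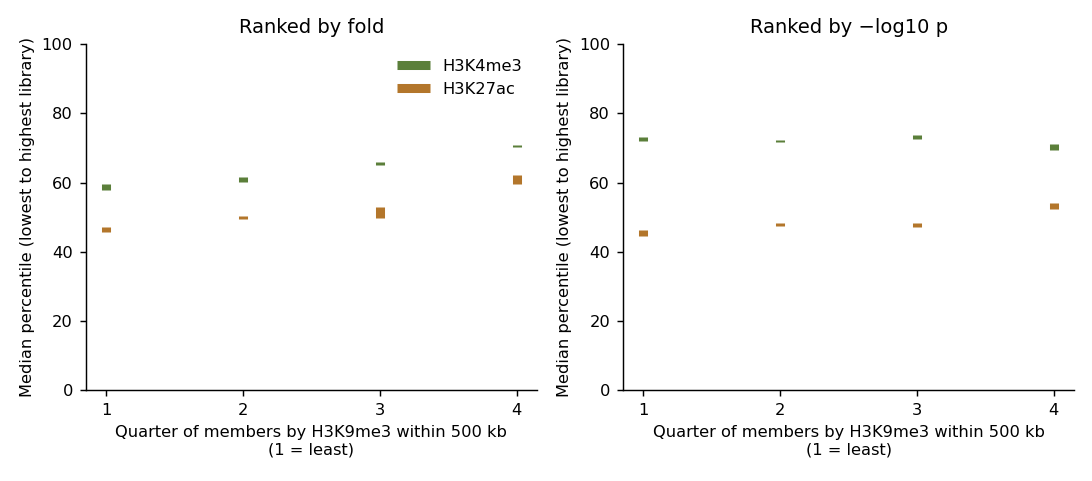
Median percentile of H3K4me3 and H3K27ac in the sites, in 4 groups of equal size by the H3K9me3 within 500 kb on each side (1 has the least), with strength ranked by fold (left) and by −log10 p (right). Each bar runs from the lowest to the highest of the 4 libraries of the mark. By fold, H3K4me3 goes from 57.8 to 59.5 in the first group to 70.3 to 70.8 in the last, and by −log10 p from 72.0 to 73.3 to 69.3 to 71.1.

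The 8 sites highest in H3K27ac were of several kinds. At chr13:66138496-66139277 the H3K27ac fold was 21.5 and 23.0 in del-cIDR and 21.7 and 23.4 in WT. By fold H3K4me3 was also strong there, at 16.7 to 18.2, while its percentile by −log10 p was 58.5 to 65.9. At chr15:33837941-33838557 the H3K27ac folds were 16.8 and 17.4 in del-cIDR and 15.7 and 15.0 in WT, while H3K4me3 was among the weakest of all, with folds of 3.03 and 4.97 in del-cIDR and 3.91 and 4.61 in WT. At chr4:116077955-116079720, 1766 bp wide, the H3K27ac folds were 15.3 and 16.5 in del-cIDR and 14.6 and 16.1 in WT. The H3K4me3 percentile there was between 32.1 and 48.0. This site had little H3K9me3 around it, with 0 to 2.70 kb in the window, as did chr6:121086108-121087467, with 1.16 to 4.96 kb. The rest of the 8 had more, as the top H3K4me3 sites did, with means of 15.3 to 30.4 kb over the 4 H3K9me3 libraries. The other sites of the 8 were chr13:65632597-65633179 and chr6:82602362-82603226, beside the pair on chromosome 8 already named. A site near the top in H3K27ac could thus be near the bottom in H3K4me3.

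Across all sites, strength in the 2 marks was related but loosely, with a Spearman's rho of 0.32 between the mean percentiles of 5649 sites, a description, since sites share libraries and base composition. In 4 groups of equal size by H3K4me3 percentile, the median H3K27ac percentile was 34.6 to 40.4 in the weakest, then 47.5 to 50.2, 53.2 to 57.6 and 59.8 to 68.7 in the strongest, over the 4 H3K27ac libraries. Only 122 sites (2.16%) had a mean percentile of at least 90 in both marks, of 802 that reached it in H3K4me3 and 393 in H3K27ac. Below 10 in both were 73 sites (1.29%). The group with the strongest H3K4me3 was narrow, with a median width of 1117 bp, and had fewer bases under H3K27ac peaks, 591 to 705 bp, than the weakest, with 740 to 882 bp.

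Width and H3K4me3 fold had no simple order. Sites under 800 bp, 367 in number, had a median H3K4me3 percentile of 26.8 to 31.6. It was 79.8 to 81.0 in the 1814 sites of 800 to under 1200 bp, 68.9 to 69.1 in the 2233 of 1200 to under 1600 bp and 47.2 to 47.4 in the 1235 wider ones. H3K27ac hardly followed width, with medians of 49.8 to 54.4, 52.1 to 55.6, 49.9 to 52.5 and 47.7 to 50.8 in the same order.

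The most frequent position of the H3K27ac summit was next to the H3K4me3 summit. The choice of sites asks for overlap with a region under 2000 bp, which in itself limits the distance. The distance of the H3K27ac summit from the median H3K4me3 summit had a median of 152 and 153 bp in the del-cIDR libraries and 154 and 158 bp in the WT libraries. The 50 bp bins on either side of the H3K4me3 summit held 10.2% to 11.2% and 12.9% to 13.6% of the sites. Beyond them the share was lower but nearly level out to 200 bp, with 5.68% to 6.41% in the bin from 200 to 150 bp on the left and 5.06% to 6.001% in that from 150 to 200 bp on the right. The summit lay within 150 bp in 48.2% to 49.5% of the sites and over 500 bp away in 9.13% to 10.4%.

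Single H3K27ac summits were less exactly placed than H3K4me3 summits. Their spread over the 4 libraries had a median of 224 bp, against 110 bp for H3K4me3. In 1090 sites (19.3%) the H3K27ac summit was within 150 bp in all 4 libraries. In 910 sites (16.1%) it was over 200 bp away in all 4, and in 853 of those (93.7%) on the same side each time. Such offset sites were 6.01% of those under 1200 bp, 17.5% of those from 1200 to under 1600 bp and 31.4% of the wider ones. An example is chr6:121086108-121087467, where the summit was 319 bp away in both del-cIDR libraries and 337 and 409 bp in WT.

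**Figure D2:**
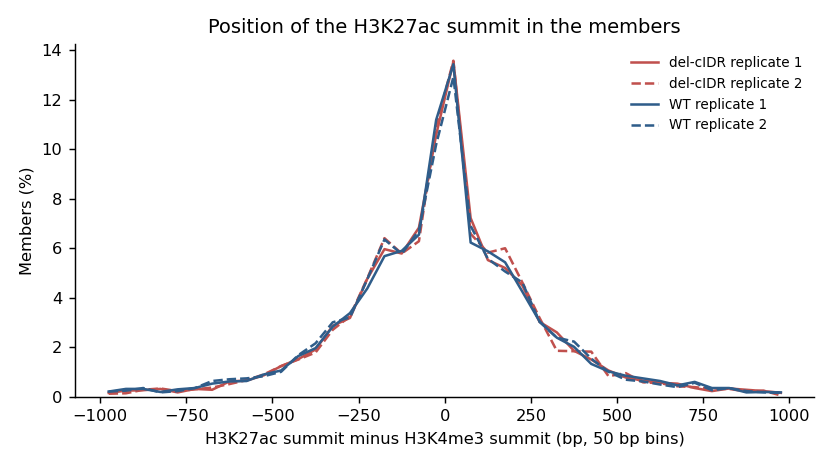
Distance of the H3K27ac summit from the H3K4me3 summit at the sites, in bins of 50 bp (x axis, bp), as a percentage of the sites (y axis), with 1 line per H3K27ac library. The 4 lines overlie each other, with 12.9% to 13.6% of the sites in the bin just right of the H3K4me3 summit.

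To see how the sites differed from other H3K4me3 regions, regions under 2000 bp without H3K9me3 were ordered by how many H3K27ac libraries had a peak there. Those with none, 3298 regions, had a median H3K4me3 percentile of 33.0 and 33.1 in del-cIDR and 34.3 and 34.8 in WT. It was 45.9 to 47.8 with 1 library, 56 to 57.4 with 2, 65.0 to 66.1 with 3 and 63.4 to 64.0 in the sites, which have all 4. The sites exceeded the regions with no H3K27ac by 30.0 ± 1.08 points (SD, n = 4 libraries, exact sign-flip permutation test, two-sided, p = 0.13, the smallest possible). Against regions with 3 libraries the difference was -1.87 ± 0.403 points, negative in each of the 4 (SD, n = 4, exact sign-flip p = 0.13). Median width went from 1063 bp with none to 1110, 1134, 1187 and 1300 bp with 4. Among regions of 1000 to under 1200 bp the order was complete, at 38.5 to 41.1, 56.3 to 58.3, 68.8 to 71.2, 77.0 to 78.7 and 81.0 to 81.9. Ranked by −log10 p it was complete at all widths, from 24.9 to 26.7 with none to 71.8 to 72.3 with 4.

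**Figure D3:**
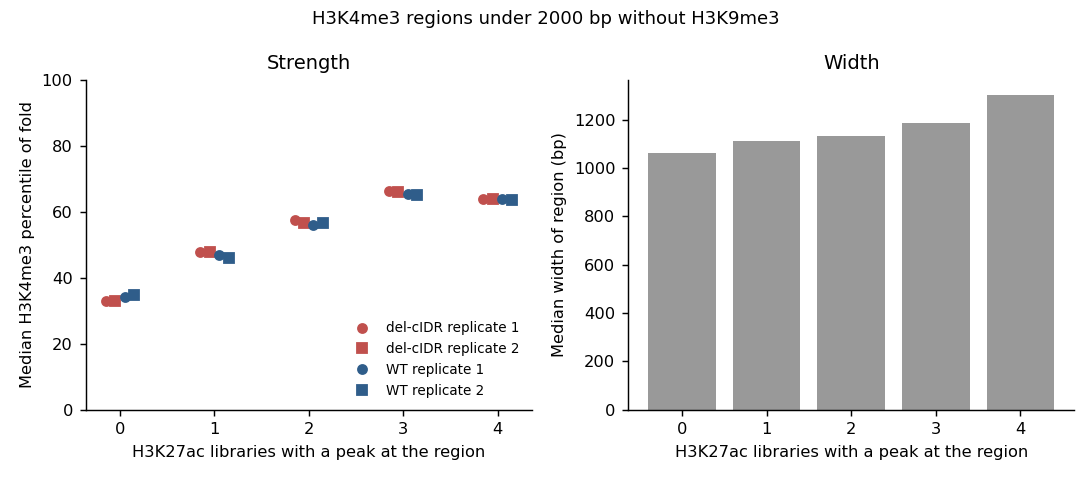
H3K4me3 regions under 2000 bp without H3K9me3, by the number of H3K27ac libraries with a peak there (x axis, 0 to 4, the last being the sites described here). Left, median percentile of H3K4me3 fold in each of the 4 H3K4me3 libraries; right, median width in bp. Strength goes from 33.0 to 34.8 with none to 65.0 to 66.1 with 3 and 63.4 to 64.0 with 4, and width from 1063 to 1300 bp.

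The 1191 regions of 2000 bp or more were taken by width alone, whatever their H3K27ac or H3K9me3. Against these, the sites had a higher percentile of H3K4me3 fold, by 41.0 ± 0.590 points (SD, n = 4 libraries, exact sign-flip p = 0.13). Ranked by −log10 p the mean difference was -0.139 points, with the sites above in 3 of 4 libraries (exact sign-flip p = 1). For H3K27ac the comparison was with the 774 wide regions that had it in all 4 libraries. The sites were above these by 19.6 ± 4.21 points (SD, n = 4, exact sign-flip p = 0.13) by fold, while by −log10 p the difference was -12.1 points. The 83 narrow regions that carried H3K9me3 beside both active marks had stronger H3K27ac than the sites. Their median H3K27ac percentile was 78.9 and 77.3 in del-cIDR and 87.9 and 80.8 in WT, against 52.4, 52.5, 51.8 and 51.1 in the sites, a difference of -29.3 ± 5.01 points (SD, n = 4, exact sign-flip p = 0.13). By −log10 p it was -15.8 points.

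H3K27ac peaks outside any H3K4me3 region, the usual mark of enhancers, were more often near the sites than near regions without H3K27ac. Within 10 kb, 24.7% and 27.7% of the sites had such a peak in the del-cIDR libraries and 24.7% and 21.8% in WT. For regions without H3K27ac the shares were 15.2%, 18.6%, 16.0% and 14.4% in the same order, lower by 8.61 ± 0.918 points (SD, n = 4 libraries). This is a description with no test, since both groups were chosen by their peaks in these same H3K27ac lists. Wide regions had more, with 33.3% to 40.4%. The nearest H3K9me3 peak was a median of 54.4 and 48.2 kb from a site in the del-cIDR libraries and 93.5 and 48.6 kb in WT, which was nearer than for regions without H3K27ac in each of the 4 libraries, by -7.36 ± 3.51 kb (SD, n = 4 libraries, exact sign-flip p = 0.13).

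Between genotypes the H3K4me3 order of the sites was nearly the same. The percentile of a site differed by a median of 4.55 points between the 2 del-cIDR libraries, by 4.55 between the 2 WT libraries and by 4.60 to 4.84 between libraries of different genotype. For H3K27ac the order was less exact. The del-cIDR libraries differed from each other by a median of 11 points, the WT libraries by 13.8, and libraries of different genotype by 12.9 to 13.5. The WT replicates were thus as far apart as libraries of different genotype.

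A site was called higher or lower in del-cIDR when both del-cIDR percentiles lay beyond both WT percentiles and the group means were at least 10 points apart. Libraries of 2 against 2 give no permutation p below 0.33, so the counts carry no p and are set beside the same share over all regions ranked. In H3K4me3, 343 sites (6.07%) were higher in del-cIDR and 256 (4.53%) lower, against 8.17% and 8.16% of all 15566 regions. In H3K27ac, 848 (15.0%) were higher and 838 (14.8%) lower, against 13.9% and 15.6% of all 6506 regions. The sites were themselves 86.8% of the 6506 regions ranked in H3K27ac, so their shares could hardly depart from those of all regions. In H3K4me3, where the sites were 36.3% of the regions ranked, the shares were below those of all regions. With this ranking the H3K27ac calls were near equal in the 2 directions. Ranks within a library have the same mean in every library. The balance of calls therefore cannot show a shift shared by most regions. Sites called in H3K4me3 had a lower median percentile, 46.0 for those higher and 53.9 for those lower, against 65.7 for sites not called. A gap of 10 points can hardly be reached near the ends of the percentile scale. Of the sites, 802 (14.2%) had a mean H3K4me3 percentile of at least 90. How far this sets the lower level of called sites, or the lower shares than in all regions, was not tested. When H3K4me3 was ranked by −log10 p, only 185 of the 599 calls were kept and 2 were turned. For H3K27ac 1250 of 1686 were kept and 1 was turned. Ranked by fold among the sites alone, 330 sites were higher and 303 lower in H3K4me3, and 793 and 902 in H3K27ac. That ranking kept 438 of the 599 H3K4me3 calls and 1622 of the 1686 in H3K27ac. The balance of directions thus depended on the regions ranked.

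**Figure D4:**
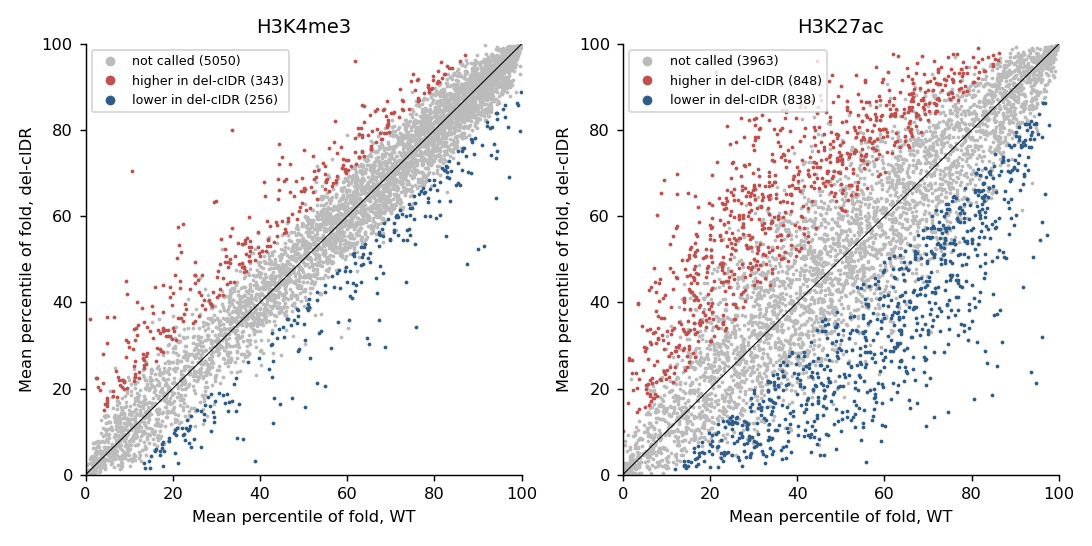
Mean percentile of fold in WT (x axis) and del-cIDR (y axis) for each site, H3K4me3 left and H3K27ac right, with sites called higher (red) or lower (blue) in del-cIDR. H3K4me3 points lie close to the diagonal with 343 and 256 calls, and H3K27ac points are spread wider with 848 and 838.

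The largest H3K4me3 gain in percentile was at chr8:19998532-19999158, in the same stretch of chromosome 8 as 2 of the strongest sites. Its fold was 10.5 and 12.9 in del-cIDR and 6.43 and 4.51 in WT, which puts it at percentiles of 58.9 and 82.0 against 17.3 and 4.06. The groups did not overlap and the means differed by 59.8 points. The H3K27ac percentiles there overlapped, with 99.5 and 98.1 in del-cIDR and 98.8 and 98.7 in WT. An H3K9me3 peak lay 0.152 to 0.913 kb away in the 4 libraries. Next were chr2:174846334-174847000, with H3K4me3 percentiles of 94.9 and 65.0 in del-cIDR and 17.3 and 49.8 in WT, and chr4:4241775-4242854, chr15:6063845-6064875, chr9:42349623-42350862 and chr14:118605409-118606692, where the means differed by 35.2 to 36.3 points.

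In the other direction, chr7:44601417-44602451 had H3K4me3 folds of 9.18 and 7.08 in del-cIDR and 12.9 and 11.5 in WT, and a difference of -41.5 points. At chr1:60358988-60359676 the marks went opposite ways. H3K4me3 folds were 9.88 and 9.77 in del-cIDR and 13.5 and 14.6 in WT, and H3K27ac folds 8.33 and 9.23 in del-cIDR and 5.21 and 4.90 in WT, with differences in percentile of -37.5 and 52.3 points. In neither mark did the genotypes overlap there. The others of the 6 were chr12:17941172-17942592, chr11:34173033-34173681, chr4:88278845-88279644 and chr19:53448960-53449624, with differences of -39.1 to -35.6 points.

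For H3K27ac the largest gain was at chr13:18167182-18168050. Its H3K27ac fold was 11.1 and 10.1 in del-cIDR and 4.71 and 4.61 in WT. The means of the percentiles differed by 72.1 points. Both del-cIDR libraries were high and both WT libraries low. The H3K4me3 percentiles at this site were 97.9 and 97.9 in del-cIDR and 99.4 and 98.1 in WT, a difference of -0.87 points and not a call. The other 5 were chr3:65362792-65363667, chr8:124044631-124045918, chr4:126571062-126572247, chr4:123611142-123612150 and chr10:88339033-88339994, with differences of 56.6 to 59.1 points, and their H3K4me3 means differed by -10.8 to 1.52 points.

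The largest loss of H3K27ac was at chr1:165353728-165354809, with H3K27ac folds of 4.87 and 5.77 in del-cIDR and 10.7 and 8.99 in WT and a difference of -73.4 points. Here H3K4me3 was lower too, with folds of 15.0 and 13.1 in del-cIDR and 18.7 and 19.4 in WT. At chr18:71763605-71764444 the H3K27ac folds were 5.95 and 4.62 in del-cIDR and 8.46 and 10.4 in WT, and the H3K4me3 folds 11.9 and 13.6 in del-cIDR and 17.7 and 19.7 in WT. Both marks were without overlap between genotypes at these 2 sites. The other 4 were chr11:93886233-93887915, chr4:25727551-25728482, chr16:19166885-19168000 and chr4:43957288-43958460, with H3K27ac differences of -66.2 to -60.6 points and H3K4me3 differences of -8.24 to -2.62 points. All 6 thus had a lower mean H3K4me3 percentile in del-cIDR. So did the 6 sites with the largest H3K27ac gains, except chr8:124044631-124045918 with a difference of 1.52 points. Among those gains, chr3:65362792-65363667 was called lower in H3K4me3, at -10.8 points.

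Over all the sites, 15.0% were called higher and 14.8% lower in H3K27ac. Of the 343 sites higher in H3K4me3, 48 were higher (14%) and 46 lower (13.4%) in H3K27ac, near those shares. Of the 256 lower in H3K4me3, 28 were higher (10.9%) and 50 lower (19.5%). The H3K4me3 mean was lower in del-cIDR at 51.9% of the 838 sites called lower in H3K27ac, at 46.7% of the 848 called higher and at 48.9% of all sites. The differences of the 2 marks had a Spearman's rho of 0.04 across sites.

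H3K27ac peaks at the sites covered more bases in both del-cIDR libraries than in both WT libraries, and H3K4me3 peaks did not. The median number of bases under H3K27ac peaks per site was 804 and 834 bp in del-cIDR and 717 and 681 bp in WT. The groups did not overlap, with means of 819 ± 21.2 bp for del-cIDR and 699 ± 25.5 bp for WT (SD, n = 2 each, 1.17-fold, exact permutation test, two-sided, p = 0.33, the smallest possible). As a share of the site this was 65.1% and 67.1% in del-cIDR and 58.3% and 55.1% in WT. For H3K4me3 the medians were 1178 and 1202 bp in del-cIDR and 1184 and 1199 bp in WT, 1190 ± 17.0 against 1192 ± 10.6 bp (SD, n = 2 each, exact permutation p = 1). At single sites, both del-cIDR libraries had more bases under H3K27ac than both WT libraries at 2161 (38.3%) and fewer at 322 (5.70%). The shares were 39.0% and 5.61% of all 6506 regions, of which the sites are 86.8%. For H3K4me3 the counts were 978 (17.3%) and 1147 (20.3%), against 17.6% and 22.1% of all 15566 regions.

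The same order was seen outside the sites. In the 774 wide regions the del-cIDR medians were 1163 and 1240 bp and the WT medians 1019 and 963 bp, a ratio of 1.21. In the 4949 H3K27ac regions of all 4 libraries without H3K4me3 they were 788 and 794 bp in the mutant libraries and 769 and 684 bp in the WT libraries, a ratio of 1.09. The del-cIDR lists of H3K27ac were also longer, with 27883 and 32353 peaks against 25153 and 22810 in WT. The part of list length in this difference was not tested.

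**Figure D5:**
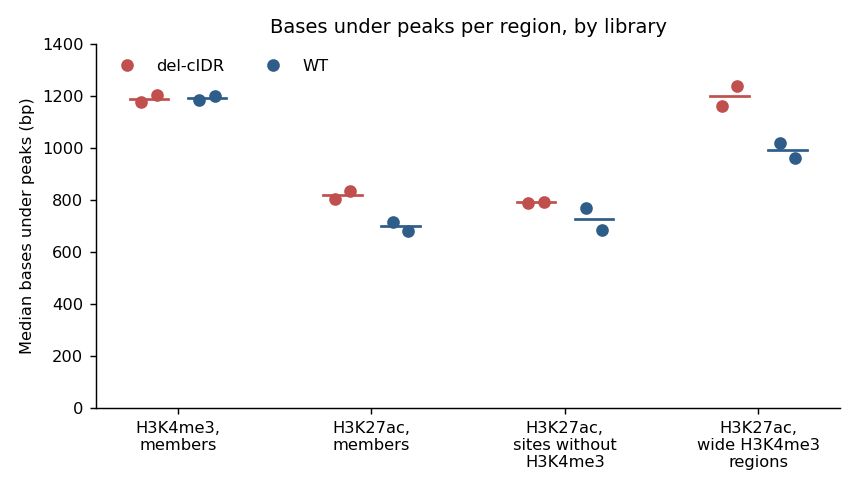
Median bases under peaks per region (y axis, bp, from 0) in each library, for H3K4me3 and H3K27ac in the sites and for H3K27ac in regions without H3K4me3 and in wide H3K4me3 regions. Points are the 2 libraries per genotype and lines their means. H3K27ac in the sites is at 804 and 834 bp in del-cIDR and 717 and 681 bp in WT, and H3K4me3 at 1178 to 1202 bp in all 4.

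By chromosome, the sites were 29.8% (chromosome 15) to 40.6% (chromosome 16) of the regions of all 4 H3K4me3 libraries. The median difference of a site's percentile, del-cIDR minus WT, ran from -0.70 on chromosome 12 to 0.63 on chromosome 19 for H3K4me3, and from -1.72 on chromosome 6 to 2.30 on chromosome 10 for H3K27ac. Chromosomes 6, 8 and 12 held a smaller share of the peaks in both del-cIDR lists than in both WT lists of H3K4me3 and of H3K27ac. On chromosome 6 it was 5.67% and 5.80% of the H3K27ac peaks in del-cIDR and 6.66% and 6.69% in WT. Of the 318 sites there, 36 (11.3%) were higher and 55 (17.3%) lower in H3K27ac. On chromosome 8, with 331 sites, the counts were 52 (15.7%) and 53 (16.0%), and on chromosome 12, with 203 sites, they were 26 (12.8%) and 32 (15.8%). These H3K27ac shares stand beside 15.0% and 14.8% of all the sites and 13.9% and 15.6% of all regions ranked. In H3K4me3, 22 sites on chromosome 6 were higher and 13 lower, with a median difference of 0.44 points. On chromosome 8 the H3K4me3 counts were 14 and 20, and on chromosome 12 they were 7 and 9. Of all the sites, 6.07% were higher and 4.53% lower in H3K4me3, against 8.17% and 8.16% of all regions ranked. Chromosomes 6, 8 and 12 were chosen from earlier results of these data. Like chromosome 6, chromosome 16 had 12.9% higher and 19.6% lower in H3K27ac, and chromosome 2 had 12.2% and 17.5%. Chromosomes 9 and 14 went the other way, with 18.3% and 13.0%, and 18.0% and 12.7%.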

How the data were processed

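Per the submitters' processing notes, the authors used fastp, BWA, SAMtools, Picard, MACS2 and featureCounts with build GRCm39. Their versions, their settings and the use of a control library were not given in the sources used here. The authors deposited 1 peak list per library, with a fold (a ratio over background), a −log10 p and a −log10 q per peak, and for narrow peaks the summit. The lowest deposited −log10 q was 1.30 for H3K4me3 and H3K27ac and 1.00 for H3K9me3. Depth is unknown, since no counts are given.

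The sites, lists, classes and tests were chosen with earlier results of these data known. A region took its strongest overlapping peak. Percentiles are mid-ranks within a library. Tests were exact permutation tests over libraries, 2 against 2 or sign flips over 4. Named sites are the 8 highest per mark, the 6 largest called differences per mark and direction, the 3 widest and the 3 just over the width limit. The rule and the calls were tested on simulated data. The main comparisons of genotypes did not pair libraries by replicate number. The planned comparisons at gene starts and of gene lists were not made, because the gene tables are on another build. Python 3.11.15, numpy 2.4.6, pandas 2.3.3, scipy 1.17.1 and matplotlib 3.10.9 were used.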

Additional observations from a re-analysis of the deposited data

How the results depend on the processing

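Of 114 alternative values of 16 results, 82 were counted as unchanged. For counts of sites this meant staying within a limit of size, and for differences only that the sign was kept. The number of sites was 3469 with a −log10 q of at least 5, 3956 to 6350 with other width limits, and 5650 to 6434 with any 1 library left out. With a gap of 5 or 20 points the H3K4me3 calls were 734 or 63 higher and 646 or 37 lower, and with 20 points the H3K27ac calls were 543 and 479. Ranked by −log10 p, 170 sites were lower in H3K4me3. With 1 library left out, which by construction lets more sites qualify, the counts were 530 to 555 higher and 421 to 472 lower in H3K4me3, and 1363 to 1495 and 1309 to 1452 in H3K27ac. With a replicate block they were 381 and 276, and 1074 and 1034. The deviations of same-numbered libraries correlated with r = 0.031 in H3K4me3 and -0.016 in H3K27ac. Ranks within a library cannot show whether same-numbered libraries were prepared together, which the labels do not state. The difference in bases under H3K4me3, -1.5 bp, was 1.43 bp as a mean over sites and -13.5 to 10.5 bp with 1 library left out. By −log10 p, sites against wide regions gave -0.139 points in H3K4me3 and -12.1 in H3K27ac, and the strongest sites had -0.485 kb (H3K4me3) and -0.400 kb (H3K27ac) of H3K9me3 relative to the others. The cause was not tested. Measured from the centre of the region, H3K27ac summits were 222 bp away in place of 154 bp. Equal list lengths, the 1000 to under 1200 bp band, the centre distance and the alternatives for H3K9me3 around strong sites were chosen after the data had been seen. The alternative for gene starts was not run.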

Other observations

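The same rule applied to the sex chromosomes, which the sites leave out, found 174 regions on X, 33.3% of its 522 regions of all 4 H3K4me3 libraries, and 1 of 5 on Y. On X the median number of bases under H3K27ac peaks was 810 and 844 bp in del-cIDR and 652 and 622 bp in WT.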
